A study of Mus musculus with 16 samples.

Results

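The genes described here are 47 interferon response genes of the mouse: antiviral genes of the kind induced by type I interferon, PYHIN, Schlafen and LY6 genes, and the interferon-inducible GTPases of the GBP and IRG families. They were chosen by symbol from a fixed list, and 34 of the 47 were found in both expression tables, among 11067 genes in Treg and 11171 in Tcon. The 34 are 23 of 29 listed antiviral genes, 6 of 9 listed PYHIN, Schlafen and LY6 genes, and 5 of 9 listed GTPases, all 5 of them GBPs. Bst2, Ifi206, Ifi27l2a, Ifi47, Igtp, Iigp1, Irgm1, Ly6a, Mx1, Mx2, Oasl2, Slfn1 and Trim30a were not analysed here, so no IRG GTPase on the list has a value.

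RNA came from CD4+ T cells sorted out of spleen and lymph node, as regulatory cells (Treg, CD4+ FOXP3+) and conventional cells (Tcon, CD4+ FOXP3-). There were 4 groups of 4 libraries: Treg and Tcon of mice given 50 mg/kg venetoclax for 14 days, and Treg and Tcon of mice given vehicle over those 14 days. All mice, vehicle mice included, were B6.Cg-Foxp3tm2Tch/J reporter animals (FOXP3-IRES-GFP, genotype given as WT), in which GFP marks cells that transcribe Foxp3. Venetoclax inhibits BCL-2, a protein that keeps lymphocytes alive. The comparison asks which transcripts differ in each subset under BCL-2 inhibition. The libraries are labelled as biological replicates and carry the numbers 1 to 4. The labels do not say whether each comes from 1 mouse or a pool, nor the age or sex of the mice.

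Interferons are cytokines that cells release on sensing foreign nucleic acid or when immune cells are activated. Type I interferon binds IFNAR and activates ISGF3, a complex with STAT2 and IRF9 that binds interferon-stimulated response elements (ISRE). Interferon gamma, the type II interferon, binds IFNGR and acts mainly at gamma-activated sites (GAS) and through IRF1. The IFIT, OAS and viperin genes are classical ISGF3 targets, whereas GBP and IRG GTPases, which attack the vacuoles of intracellular pathogens, are induced strongly by interferon gamma and also by type I interferon. T cells hold low tonic levels of these transcripts without infection.

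Reads per library ran from 21335006 to 25027038 in Treg and from 22982210 to 24960570 in Tcon. Foxp3 stood at 836 ± 67.8 CPM (reads of a gene scaled to a common library total) in vehicle Treg and 29.1 ± 2.28 CPM in vehicle Tcon. In summed CPM, lists for CD8 T cells, B cells, plasma cells, monocytes and macrophages, neutrophils, NK cells, erythroid cells, platelets and stroma reached 42.0 CPM at most (NK genes in a venetoclax Tcon library). Libraries numbered 2 stood apart in every group: they gave the lowest of the 4 values for 18 of the 23 antiviral genes in venetoclax Treg, 22 in vehicle Treg, 19 in venetoclax Tcon and 18 in vehicle Tcon. Reads of the Y-linked gene Ddx3y, chosen after its values were seen, were highest in the libraries numbered 2 of every group. In Treg its normalized counts were 1695, 5539, 2872 and 0.96 in venetoclax libraries 1 to 4, against 0, 5326, 0.974 and 0 in vehicle libraries 1 to 4, and Tcon had the same pattern, with 1468, 6674, 3050 and 0.988 in venetoclax Tcon, against 0, 5664, 0 and 0 in vehicle Tcon. Y-linked reads were thus present in 3 of 4 venetoclax and 1 of 4 vehicle libraries of each subset, so the calls are also given with Ddx3y as a covariate. Such reads therefore went in part with treatment. The ranks of libraries within a group do not compare venetoclax with vehicle. Venetoclax library 1, which held such reads, gave the highest of the 4 values for 17 of the 23 antiviral genes in Treg and 15 in Tcon.

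Promoter windows from RefSeq (GRCm38.p6, 250 bases before to 50 after an annotated start) were found for 26 of the 34 genes. The ISRE-type letters, GAAA and a further GAAA with 2 bases of any kind between them, were searched on both strands with overlaps counted. They were in a window of 18 of these 26 genes (69.2%), against 3.99% of all 27025 genes with a window. The GAS-type letters TTCNNNGAA, which read alike on both strands, were in 4 of the 26 (15.4%), against 9.55% of all genes. By class, ISRE-type letters were in 10 of 17 antiviral genes, 5 of 6 PYHIN and Schlafen genes and 3 of 3 GBPs. The 250 bases before the start are printed for Ifit3, the antiviral gene with the largest fall in Treg, and for the 3 GBPs with a window, which rose in Treg. Capitals mark the ISRE-type letters, which here lie on the opposite strand and so read TTTC, 2 bases and TTTC, and in Gbp7 also the GAS-type letters.
Ifit3, chr19:34583279-34583528, plus strand: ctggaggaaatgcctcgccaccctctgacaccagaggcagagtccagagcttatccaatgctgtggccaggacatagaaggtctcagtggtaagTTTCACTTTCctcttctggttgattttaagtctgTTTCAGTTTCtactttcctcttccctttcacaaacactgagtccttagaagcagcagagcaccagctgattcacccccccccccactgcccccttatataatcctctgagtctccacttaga
Gbp3, chr3:142559794-142560043, plus strand: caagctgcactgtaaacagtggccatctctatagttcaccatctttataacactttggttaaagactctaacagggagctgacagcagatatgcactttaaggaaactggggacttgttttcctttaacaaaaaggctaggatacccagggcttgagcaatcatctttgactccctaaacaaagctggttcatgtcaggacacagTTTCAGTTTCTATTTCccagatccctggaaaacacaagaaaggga
Gbp7, chr3:142530086-142530335, plus strand: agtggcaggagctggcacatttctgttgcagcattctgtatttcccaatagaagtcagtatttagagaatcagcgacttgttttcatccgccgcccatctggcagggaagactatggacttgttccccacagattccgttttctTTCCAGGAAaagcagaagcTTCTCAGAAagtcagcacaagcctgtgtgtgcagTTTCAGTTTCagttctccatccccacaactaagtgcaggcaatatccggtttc
Gbp2, chr3:142620413-142620662, plus strand: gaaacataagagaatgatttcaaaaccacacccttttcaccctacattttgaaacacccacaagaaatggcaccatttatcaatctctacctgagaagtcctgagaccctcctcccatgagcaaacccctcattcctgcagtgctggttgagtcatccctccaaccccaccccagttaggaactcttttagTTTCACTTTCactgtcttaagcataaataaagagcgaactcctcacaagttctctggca
The Ifit3 window holds an ISRE-type match that begins 156 bases and another that begins 122 bases before the start. In Gbp3 2 matches overlap, beginning 45 and 39 bases before it, and a further Gbp3 window from another annotated start held none. Gbp7 has GAS-type matches at 106 and 87 bases and an ISRE-type match at 53 bases before the start, and Gbp2 has an ISRE-type match at 59 bases. No ISRE-type letters were found in the windows of Ifit2 and Irf7, which also changed in Treg, and 1 window of Ifit2 held GAS-type letters. A match is a string of letters and not a shown binding site.

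In Treg from venetoclax mice, 10 of 23 antiviral genes fell and 3 of 5 GBP genes rose. Of the 34 genes, 18 passed the test (limma on log2 of normalized counts, adjusted p below 0.05 over all genes): 14 were lower and 4 higher. Over all 11067 Treg genes 19.6% passed, 8.81% as lower and 10.7% as higher. With upper quartile scaling the split of all Treg calls was 1350 lower and 968 higher, against 975 lower and 1189 higher without it, and 15 of the 34 genes were lower and 4 higher. Among the 23 antiviral genes 10 fell (Irf7, Usp18, Ifit1, Ifit2, Ifit3, Ifit3b, Oas2, Rsad2, Xaf1 and Dhx58), 1 rose (Parp14) and 12 did not pass. Of the 6 PYHIN and Schlafen genes 4 fell (Ifi208, Ifi209, Ifi213 and Slfn5), and of the 5 GBPs 3 rose (Gbp2, Gbp3 and Gbp7). The median log2 change was -0.38 for the antiviral genes, -0.24 for the PYHIN and Schlafen genes and 0.27 for the GBPs, beside 0.0048 for all genes. All 4 venetoclax libraries lay below all 4 vehicle libraries for 7 genes and above them for 4, a pattern that 10.7% and 12% of all Treg genes show. In sorted bulk RNA, fewer cells that express a gene and less RNA per cell cannot be told apart. The 3 measured of 8 dendritic cell markers summed to 62.1 to 77.4 CPM in venetoclax Treg and 35.9 to 57.1 CPM in vehicle Treg, with Cd74 passing as higher. The 3 measured of 7 plasmacytoid dendritic cell markers summed to 120.1 to 128 CPM in venetoclax Treg and 129 to 140.2 CPM in vehicle Treg. In neither list was a measured marker at 0. Of the other lists, Cd28 (CD4 T cell), Cd22 (B cell) and Ikzf2 and Ikzf4 (Treg) passed as higher in venetoclax Treg. The part of these markers in the result was not tested.

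**Figure D1:**
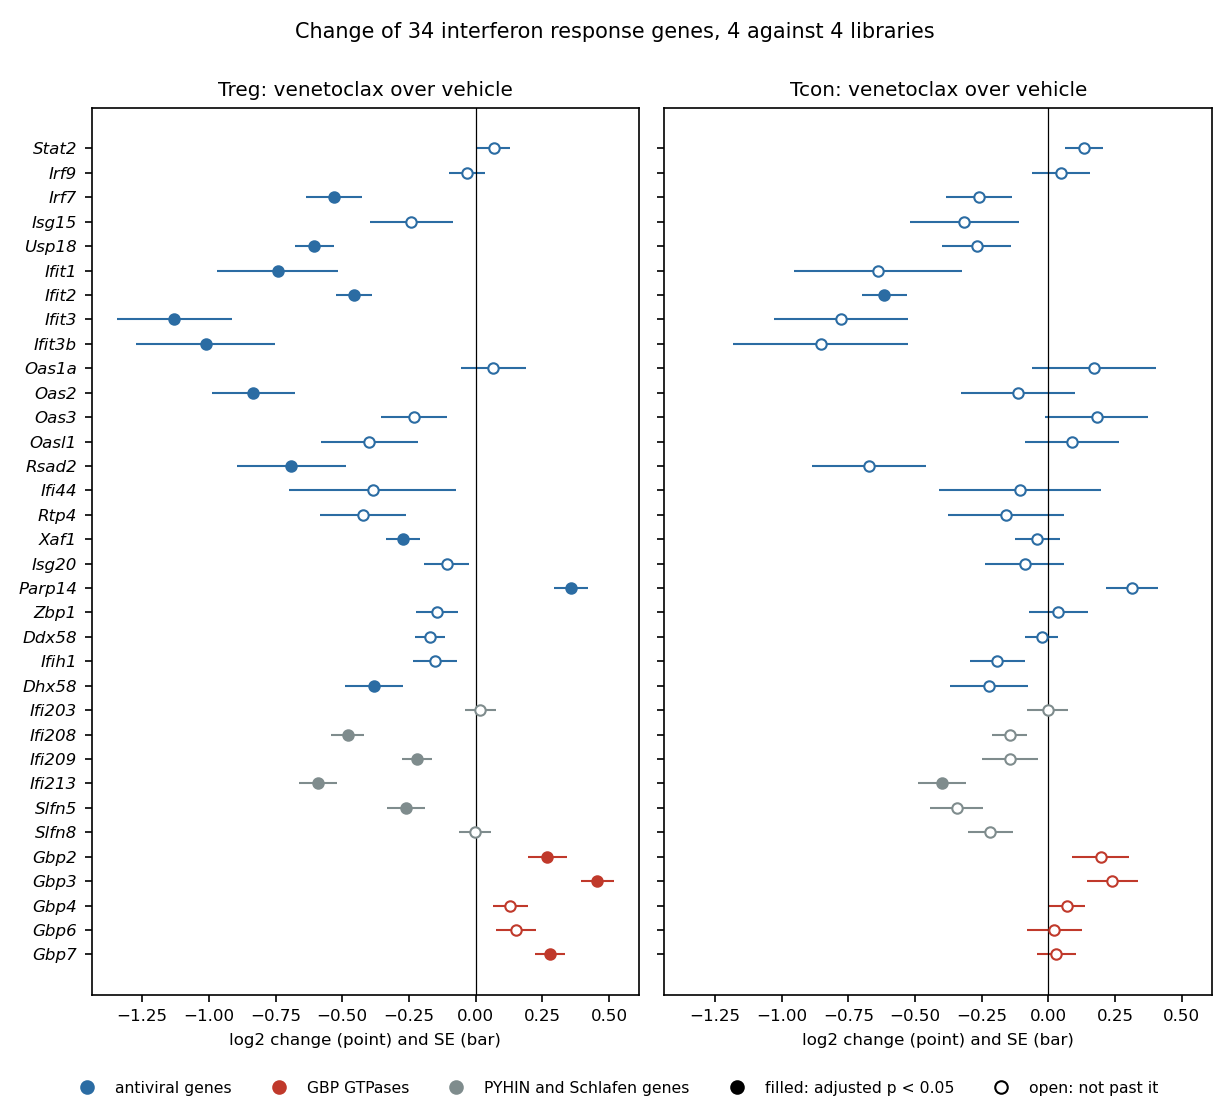
Log2 change (point) with its SE (bar) of 34 interferon response genes, venetoclax over vehicle, in Treg (left) and Tcon (right), with 4 libraries a group. In Treg 10 of 23 antiviral genes lie left of 0 with filled points, while 3 of 5 GBP genes lie right of 0 with filled points. In Tcon the filled points are Ifit2 and Ifi213.

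Among the factors that carry the type I signal, Irf7 fell in Treg and the 2 measured ISGF3 subunits on the list did not pass the test. Normalized counts, given in the order of libraries 1 to 4, of Irf7 (Entrez 54123), the factor that amplifies type I interferon production, were 1465, 1173, 1297 and 1206 in venetoclax Treg, against 2134, 1437, 2004 and 1908 in vehicle Treg. Vehicle library 2 lay within the range of the venetoclax libraries and the other 3 vehicle libraries above it, for a log2 change of -0.53 ± 0.11 (SE, adjusted p = 0.00438). Stat2, a subunit of ISGF3, had 2620.2, 2264, 2711 and 2312 in venetoclax Treg, against 2311, 2272, 2382 and 2459.9 in vehicle Treg, and its groups overlapped (log2 change 0.068 ± 0.062 SE, adjusted p = 0.474). Irf9, the DNA-binding subunit of ISGF3, had 4466, 3780.2, 4424 and 4277 in venetoclax Treg, against 4686, 3813, 4439.7 and 4400.1 in vehicle Treg. Its groups overlapped as well, with a log2 change of -0.032 ± 0.069 (SE, adjusted p = 0.782). Usp18, which removes ISG15 from proteins and restrains signalling at IFNAR2, had 685, 658, 661 and 602 in venetoclax Treg, against 1020.0, 868, 1036 and 1049 in vehicle Treg. Every venetoclax library was below every vehicle library, and Usp18 had the smallest p of the 34 genes (log2 change -0.60 ± 0.072 SE, adjusted p = 0.000224). Isg15, a ubiquitin-like protein that is attached to other proteins, had 454, 302, 432 and 391 in venetoclax Treg, against 567, 328, 489.7 and 497 in vehicle Treg. These groups overlapped and Isg15 did not pass (log2 change -0.24 ± 0.16 SE, adjusted p = 0.302).

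All 4 IFIT genes, whose products bind viral RNA, fell in Treg. They lie in a cluster on chromosome 19 between 34550550 and 34650009 (GRCm38.p6). Ifit3 (Entrez 15959) had 553, 268, 366 and 343 in venetoclax Treg, against 1114, 541, 956 and 743 in vehicle Treg. Venetoclax library 1 was above vehicle library 2, and otherwise the groups were apart. Its log2 change of -1.13 ± 0.22 (SE, adjusted p = 0.00355) was the largest fall among the 34 genes. Ifit3b had 161, 74.3, 139 and 119 in venetoclax Treg, against 371, 153, 289 and 203 in vehicle Treg, with the same libraries overlapping (log2 change -1.01 ± 0.26 SE, adjusted p = 0.0165). Ifit1 had 807, 383, 659.9 and 548 in venetoclax Treg, against 1272, 619, 1219 and 915 in vehicle Treg, where vehicle library 2 lay below venetoclax libraries 1 and 3 (log2 change -0.74 ± 0.23 SE, adjusted p = 0.0343). Ifit2 had 1888, 1769, 1759 and 1705 in venetoclax Treg, against 2636, 2463, 2598 and 2103 in vehicle Treg. All its venetoclax values were below all its vehicle values, and its spread was smaller than that of the other IFIT genes (log2 change -0.46 ± 0.068 SE, adjusted p = 0.000815). Ifit3 and Ifit3b are near-identical copies, so how reads were split between them is uncertain, as the labels do not name the counter.

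**Figure D2:**
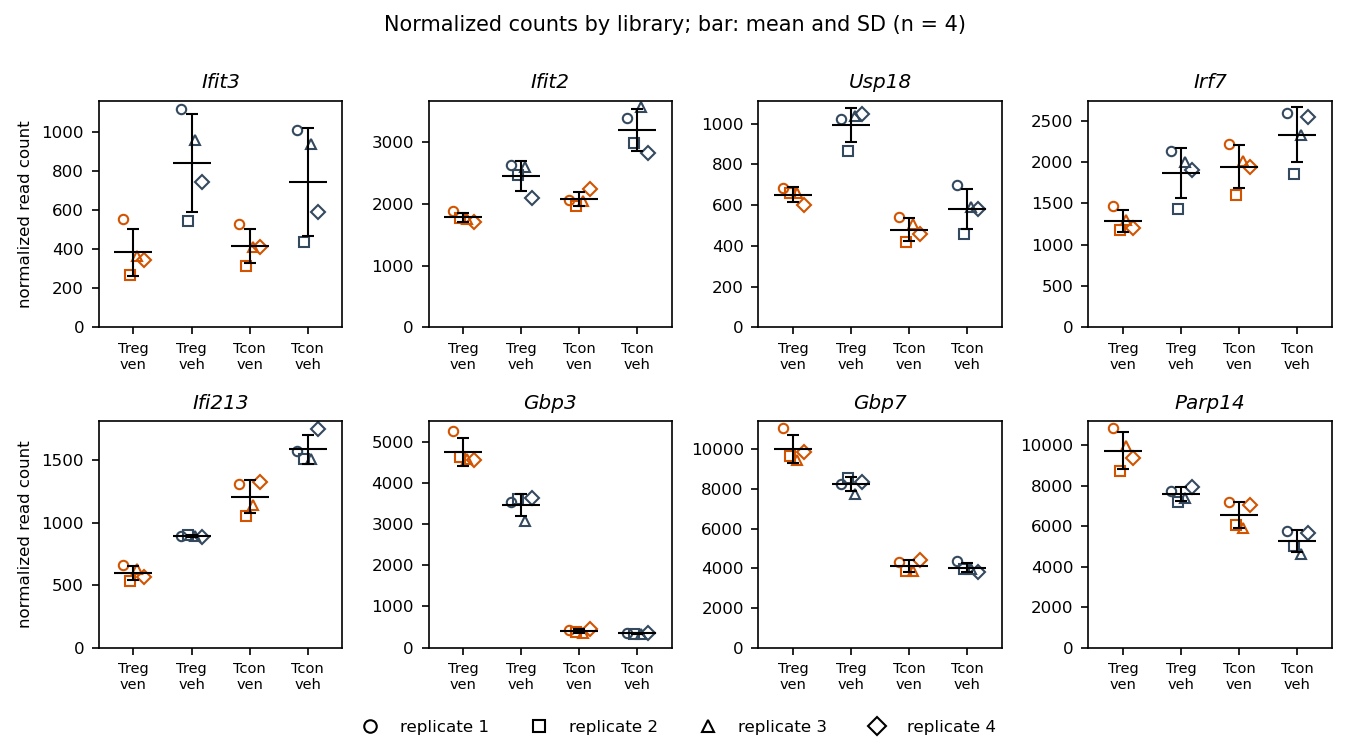
Normalized read counts of 8 genes in each library, venetoclax (ven) left of vehicle (veh) for Treg and for Tcon, with the replicate number as the marker shape and a bar for mean and SD (n = 4). In Treg the venetoclax libraries of Ifit2, Usp18 and Ifi213 lie below and those of Gbp3, Gbp7 and Parp14 above every vehicle library. Replicate 2 is the lowest vehicle library for Ifit3 and Irf7 in both subsets.

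The 2'-5' oligoadenylate synthetases, which switch on RNase L when they meet double-stranded RNA, did not move as a block in Treg. Oas2 fell, with 137, 97.7, 109 and 98.9 in venetoclax Treg, against 224, 152, 184 and 237 in vehicle Treg, and its groups did not overlap (log2 change -0.83 ± 0.16 SE, adjusted p = 0.00296). Oas1a, Oas3 and Oasl1 did not pass, with log2 changes of 0.067, -0.23 and -0.40 (adjusted p 0.741, 0.204 and 0.141). Of the other effectors, Rsad2, which encodes viperin, a block to virus replication, had 145, 90.6, 116 and 145 in venetoclax Treg, against 259, 126, 216 and 215 in vehicle Treg. Only vehicle library 2 lay among the venetoclax values (log2 change -0.69 ± 0.21 SE, adjusted p = 0.0311). Xaf1, a pro-apoptotic antagonist of XIAP, had 785, 738, 798 and 797 in venetoclax Treg, against 1033, 866, 929.8 and 944 in vehicle Treg. Every venetoclax value was below every vehicle value, over a smaller change (log2 change -0.27 ± 0.064 SE, adjusted p = 0.0107). Parp14, an ADP-ribosyltransferase, was the antiviral gene that went up, with 10872, 8742, 9959 and 9356 in venetoclax Treg, against 7741, 7208, 7377 and 7956 in vehicle Treg, all venetoclax values being above all vehicle values (log2 change 0.36 ± 0.064 SE, adjusted p = 0.00226). Ifi44, Rtp4 and Isg20, an exonuclease, had log2 changes of -0.39, -0.42 and -0.11 and did not pass (adjusted p 0.417, 0.0821 and 0.397).

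Among the cytosolic nucleic acid sensors 1 of 4 fell. Dhx58, which encodes LGP2, a regulator of the RNA sensors RIG-I and MDA5, had 644, 478, 648 and 577 in venetoclax Treg, against 779, 622, 849 and 809 in vehicle Treg. Vehicle library 2 was below venetoclax libraries 1 and 3, and the log2 change was -0.38 ± 0.11 (SE, adjusted p = 0.0267). Ddx58 (RIG-I), Ifih1 (MDA5) and Zbp1, a sensor of Z-form nucleic acid, did not pass, with log2 changes of -0.17, -0.15 and -0.14 (adjusted p 0.0526, 0.215 and 0.208). On recovered reads Ddx58 passed by edgeR (adjusted p = 0.0469) and DESeq2 (adjusted p = 0.0351), and Ifit1 did not pass by DESeq2 (adjusted p = 0.0736).

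PYHIN proteins carry a pyrin domain and a DNA-binding HIN domain, and 3 of 4 measured PYHIN genes, all on chromosome 1 between 173566280 and 173942866, fell in Treg. Ifi213 had 659.5, 533, 626 and 563 in venetoclax Treg, against 894, 899.9, 891 and 889 in vehicle Treg. The vehicle values lay within a range narrower than that of the venetoclax values, and all venetoclax values were below it (log2 change -0.59 ± 0.071 SE, adjusted p = 0.000226). Ifi208 had 2926, 2505, 2612 and 2387 in venetoclax Treg, against 3768, 3441, 3718 and 3589.6 in vehicle Treg, again without overlap (log2 change -0.48 ± 0.061 SE, adjusted p = 0.000305). Ifi209 had 9233, 7829, 8222 and 8533 in venetoclax Treg, against 10054, 9309.7, 10235 and 9776 in vehicle Treg, also without overlap, over a smaller change (log2 change -0.22 ± 0.056 SE, adjusted p = 0.0156). Ifi203, the highest of the 34 genes in reads in vehicle Treg, had 11441 ± 811 in venetoclax Treg and 11290.3 ± 478 in vehicle Treg (SD, n = 4 each) and a log2 change of 0.017 ± 0.057 (SE, adjusted p = 0.862). Schlafen proteins restrain lymphocyte growth and virus replication. Slfn5 had 6095, 5157, 5309 and 5464 in venetoclax Treg, against 7098, 5934, 7228 and 6194 in vehicle Treg, with venetoclax library 1 above vehicle library 2 (log2 change -0.26 ± 0.071 SE, adjusted p = 0.0205), and Slfn8 did not pass (log2 change -0.0015 ± 0.061 SE, adjusted p = 0.991). PYHIN genes are similar in sequence, and how reads were shared among them is not known.

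Of the 5 GBP genes, 3 were higher in venetoclax Treg and none was lower. Gbp3 (Entrez 55932) had 5265, 4639, 4594 and 4559 in venetoclax Treg, against 3542, 3614, 3091 and 3644 in vehicle Treg. Every venetoclax library was above every vehicle library, with venetoclax library 1 above the other 3, and the log2 change was 0.46 ± 0.063 (SE, adjusted p = 0.000518). Gbp7 had 11052, 9646, 9458 and 9871 in venetoclax Treg, against 8261, 8573, 7754 and 8353 in vehicle Treg, without overlap (log2 change 0.28 ± 0.057 SE, adjusted p = 0.00476). Gbp2 had 5582, 4425, 4494 and 5122 in venetoclax Treg, against 4287, 3872, 3787 and 4287 in vehicle Treg, its lowest venetoclax value being above its highest vehicle value (log2 change 0.27 ± 0.073 SE, adjusted p = 0.0211). Gbp4 and Gbp6 had positive values that did not pass, at 0.13 ± 0.066 (SE, adjusted p = 0.184) and 0.15 ± 0.074 (SE, adjusted p = 0.170). GBP paralogs are alike in sequence, so reads may have been split among them.

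Gbp2, Gbp3 and Gbp7 share a cluster on chromosome 3, and Gbp4 and Gbp6 lie on chromosome 5. This grouping was made after the values were seen and is given with no test. All 5 measured genes of the chromosome 3 cluster (142496934 to 142638008) were higher in venetoclax Treg: besides the 3 on the list these were Gbp2b (log2 change 0.92 ± 0.11 SE, adjusted p = 0.000200) and Gbp5 (log2 change 0.33 ± 0.053 SE, adjusted p = 0.00116). Gbp2b had 1560.3, 1455, 1317 and 1482 in venetoclax Treg, against 865, 915, 608 and 721 in vehicle Treg, and Gbp5 had 4373, 3764, 3801 and 4027 in venetoclax Treg, against 3162, 3167, 3058 and 3250.4 in vehicle Treg. In both genes the groups did not overlap, and Gbp2b had the largest change of the cluster. On chromosome 5, 0 of 5 GBP genes passed in Treg (Gbp4, Gbp6, Gbp9, Gbp10 and the transcribed pseudogene Gbp11), with log2 changes from -0.065 in Gbp9 to 0.15 in Gbp6.

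**Figure D3:**
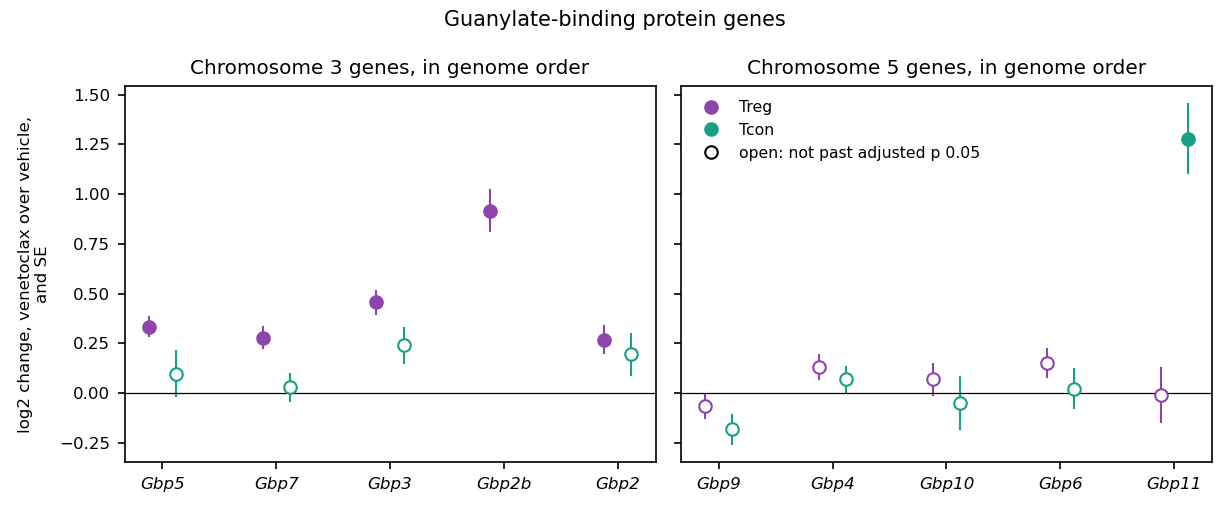
Log2 change with SE of GBP genes, venetoclax over vehicle, in genome order on chromosome 3 (left panel) and chromosome 5 (right panel), for Treg and Tcon. All 5 chromosome 3 genes are filled in Treg, and on chromosome 5 the filled point is Gbp11 in Tcon at 1.28. Gbp2b has no value in Tcon.

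The contrast of the classes was read within each library, as the median log2 deviation of a class from the vehicle mean of the subset. In Treg the antiviral median was -0.13, -0.59, -0.24 and -0.34 in venetoclax libraries 1 to 4, against 0.16, -0.29, 0.086 and 0.044 in vehicle libraries. The GBP median was 0.43, 0.13, 0.22 and 0.26 in venetoclax Treg, against 0.031, 0.059, -0.097 and 0.072 in vehicle Treg. Vehicle library 2 lay among the venetoclax libraries for the antiviral class, and the GBP class had no overlap. The antiviral median minus the GBP median was -0.55, -0.72, -0.46 and -0.60 in venetoclax Treg, against 0.13, -0.35, 0.18 and -0.028 in vehicle Treg. Each such difference is taken within a library, and the venetoclax values were all below the vehicle values. In Tcon the same difference was -0.14, -0.27, -0.18 and -0.28 in venetoclax libraries, against 0.15, -0.29, 0.094 and -0.035 in vehicle libraries. There vehicle library 2 lay below all 4 venetoclax libraries and the other 3 vehicle libraries above them. No test was made of these medians, since the genes were chosen with results known.

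**Figure D4:**
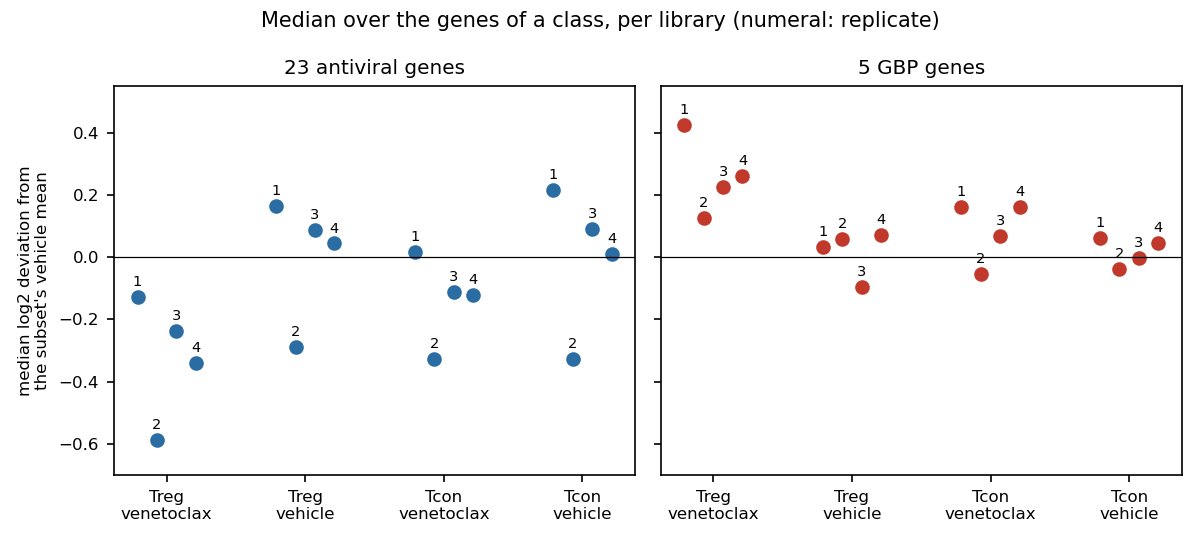
Median log2 deviation from the vehicle mean of the subset, over 23 antiviral genes (left panel) and 5 GBP genes (right panel), 1 point per library with its replicate number. Library 2 is lowest for the antiviral genes in each of the 4 groups, and the 4 venetoclax Treg points of the GBP genes lie above the 4 vehicle Treg points.

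With Ddx3y as a covariate 11 of the 34 genes passed in Treg (7 lower, 4 higher), beside 13.8% of all genes (5.85% lower, 7.93% higher). The 7 were Usp18, Ifi213, Ifi208, Ifit2, Oas2, Ifit3 and Irf7, and the 4 were Gbp2, Gbp3, Gbp7 and Parp14. The antiviral median was then -0.22 and the GBP median 0.26. The 7 genes no longer past the threshold were Xaf1, Ifi209, Ifit3b, Slfn5, Dhx58, Rsad2 and Ifit1, with adjusted p from 0.0506 to 0.163. Without both libraries numbered 2, 20 genes passed, beside 17.2% of all genes, and the antiviral median was -0.38.

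When each Treg library was left out in turn, 12 of the 18 calls held every time: Irf7, Usp18, Ifit2, Ifit3, Oas2, Xaf1, Parp14, Ifi208, Ifi209, Ifi213, Gbp3 and Gbp7. The count of calls was 12 without vehicle library 3 and 13 without vehicle library 1, where the share of all genes called was 12.8% and 13.5%. Without vehicle library 2 the count was 23, beside 19.9% of all genes. The antiviral median was -0.23 without vehicle library 1 and -0.25 without venetoclax library 2. Without vehicle library 1 the adjusted p was 0.101 for Ifit1, 0.0512 for Ifit3b, 0.0967 for Rsad2, 0.0647 for Dhx58 and 0.0652 for Slfn5. Without vehicle library 3 it was 0.102 for Ifit1, 0.051 for Ifit3b, 0.0816 for Rsad2, 0.0829 for Dhx58, 0.0645 for Slfn5 and 0.0652 for Gbp2. Without venetoclax library 2 it was 0.086 for Ifit1, 0.0815 for Rsad2, 0.0687 for Dhx58 and 0.0557 for Slfn5. Without vehicle library 4 it was 0.0602 for Rsad2 and 0.0544 for Dhx58, and without venetoclax library 3 it was 0.0665 for Rsad2 and 0.0524 for Slfn5. Without venetoclax library 4 it was 0.0708 for Ifit1, 0.0561 for Dhx58 and 0.059 for Gbp2, and without venetoclax library 1 it was 0.0675 for Gbp2.

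In Tcon 2 of the 34 genes passed, Ifit2 and Ifi213, both lower in venetoclax Tcon. Over all 11171 Tcon genes 6.91% passed, 2.99% as lower and 3.92% as higher. The median log2 change was -0.11 for the antiviral genes, -0.18 for the PYHIN and Schlafen genes and 0.07 for the GBPs, beside 0.0022 for all genes. All venetoclax values were below all vehicle values in 4 genes (Ifit2, Ifi208, Ifi213 and Slfn5) and above them in Parp14 and Gbp3, a pattern shown by 7.47% and 8.78% of all Tcon genes. Ifit2 had 2069.7, 1966, 2049 and 2239.8 in venetoclax Tcon, against 3400.5, 2988, 3576 and 2832 in vehicle Tcon. The groups were far apart and the log2 change was -0.62 ± 0.084 (SE, adjusted p = 0.00227), a call that held without each library in turn. Ifi213 had 1314, 1051, 1143 and 1326 in venetoclax Tcon, against 1578, 1511, 1510.3 and 1753 in vehicle Tcon, again without overlap (log2 change -0.40 ± 0.091 SE, adjusted p = 0.0258). Its adjusted p was above 0.05 when vehicle library 1 (0.0699), 2 (0.0517) or 4 (0.0624) or venetoclax library 1 (0.0502), 2 (0.0724) or 3 (0.0672) was left out. The count of calls was 1 without each of these libraries except vehicle library 2, where it was 3, and the share of all genes called, with each of these 6 left out in turn, ran from 2.74% to 5.96%. The Treg marker list, all 6 of its genes measured, summed to 164 to 198 CPM in venetoclax Tcon and 129 to 159.9 CPM in vehicle Tcon, with Il2ra and Tnfrsf18 passing as higher. The 4 measured of 7 plasmacytoid dendritic cell markers summed to 80.3 to 104.6 CPM in venetoclax Tcon and 89.4 to 118.9 CPM in vehicle Tcon, with Pacsin1 passing as lower. Cd5 of the CD4 T cell list also passed as lower. The part of these markers in the result was not tested.

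The 6 genes next in order of p in Tcon did not pass the test. Slfn5 had 5443, 4512, 4381 and 5257 in venetoclax Tcon, against 7179.6, 5539.6, 6218 and 5939.8 in vehicle Tcon, and Parp14 had 7203, 6034, 5926 and 7027 in venetoclax Tcon, against 5763, 5021, 4616 and 5679.6 in vehicle Tcon. Neither gene's groups overlapped, at log2 changes of -0.34 ± 0.10 (SE, adjusted p = 0.0667) and 0.31 ± 0.096 (SE, adjusted p = 0.0796). Rsad2 had 175, 102, 155 and 145 in venetoclax Tcon, against 299, 156, 242 and 234 in vehicle Tcon, with vehicle library 2 among the venetoclax values (log2 change -0.67 ± 0.21 SE, adjusted p = 0.0874). Ifit3 had 528, 315, 411 and 409 in venetoclax Tcon, against 1011, 438, 935 and 587 in vehicle Tcon, and Ifit3b had 217, 96, 114 and 140.2 in venetoclax Tcon, against 363, 147, 365 and 185 in vehicle Tcon. Vehicle library 2 was again the one low vehicle value of Ifit3, while Ifit3b also had venetoclax library 1 above vehicle library 4 (log2 change -0.78 ± 0.25 SE, adjusted p = 0.0943 and -0.85 ± 0.33 SE, adjusted p = 0.153). Slfn8 had 4528, 4097, 4016 and 4805 in venetoclax Tcon, against 5751, 4727, 4881 and 4929.8 in vehicle Tcon, where venetoclax library 4 exceeded vehicle library 2 (log2 change -0.22 ± 0.085 SE, adjusted p = 0.161).

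Tcon libraries of the same replicate number were treated as paired, a pairing that the labels do not give. Number 1 correlated weakly (r = 0.119), less than vehicle library 1 did with venetoclax library 4 (r = 0.252). The vehicle and venetoclax libraries come from different mice, so calls with the block rest on an assumed pairing. With the number as a block 12 of the 34 genes passed in Tcon, 11 lower and 1 higher, beside 16.8% of all genes (7.9% lower, 8.92% higher). These were Ifit1, Ifit2, Ifit3, Ifit3b, Irf7, Isg15, Usp18, Rsad2, Ifi213, Slfn5 and Slfn8 as lower and Parp14 as higher. With the block the adjusted p was 0.000909 for Ifit3, 0.00206 for Ifit1, 0.00759 for Ifit3b, 0.00156 for Rsad2, 0.00187 for Parp14 and 0.00324 for Slfn5. It was 0.0105 for Irf7, 0.0252 for Isg15, 0.0359 for Usp18 and 0.0312 for Slfn8. The log2 changes of Ifit1 and Usp18 were -0.64 and -0.27, with adjusted p of 0.262 and 0.253 without the block. By the authors' deposited table, the adjusted p-value was below 0.05 for 6 of the 34 genes in Tcon (Ifit2, Ifit3, Rsad2, Ifi213, Slfn5 and Parp14), beside 11.3% of all genes, and for 18 in Treg, beside 20.5%. Those 18 are not the same set as by limma: Ddx58 was among them (authors' adjusted p = 0.0451) and Ifit1 was not (0.0814). With Ddx3y as a covariate Ifit2 alone passed in Tcon (adjusted p = 0.0186), beside 2.92% of all genes, and the antiviral median was 0.0049.

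The regulators and the remaining antiviral genes overlapped between the groups in Tcon. Irf7 had 2225, 1601, 2009 and 1939 in venetoclax Tcon, against 2589, 1861, 2325 and 2548 in vehicle Tcon (log2 change -0.26 ± 0.12 SE, adjusted p = 0.244). Isg15 had 425, 234, 375 and 317 in venetoclax Tcon, against 495, 296, 477 and 406 in vehicle Tcon (log2 change -0.31 ± 0.20 SE, adjusted p = 0.404). Both were lowest in libraries 2 of either treatment. Stat2 had 1771, 1685, 1907 and 1773 in venetoclax Tcon, against 1599, 1597, 1519 and 1801 in vehicle Tcon, and Irf9 had 3852, 2972, 3941 and 3570.0 in venetoclax Tcon, against 3552, 2969, 3917 and 3424 in vehicle Tcon. Their log2 changes were 0.13 ± 0.072 (SE, adjusted p = 0.315) and 0.047 ± 0.11 (SE, adjusted p = 0.852). The 4 OAS genes ran from -0.11 in Oas2 to 0.18 in Oas3, and the 4 nucleic acid sensors from -0.22 in Dhx58 to 0.037 in Zbp1. Ifi44, Rtp4, Xaf1 and Isg20 had log2 changes of -0.11, -0.16, -0.043 and -0.089. The PYHIN genes Ifi203, Ifi208 and Ifi209 had -0.0021, -0.15 and -0.14, and of these only Ifi208 had groups that did not overlap.

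None of the 5 GBP genes on the list passed in Tcon. Gbp2 had 2437, 1882, 2290.3 and 2752 in venetoclax Tcon, against 2111, 1865, 2162 and 1971 in vehicle Tcon, and its groups overlapped (log2 change 0.20 ± 0.11 SE, adjusted p = 0.319). Gbp3, far lower in Tcon than in Treg, had 437, 382, 359.9 and 452 in venetoclax Tcon, against 345, 335, 339.9 and 355 in vehicle Tcon. Its venetoclax values were all above its vehicle values, but it did not pass (log2 change 0.24 ± 0.094 SE, adjusted p = 0.161). Gbp4, Gbp6 and Gbp7 had log2 changes of 0.07, 0.022 and 0.03. Gbp2b, outside the list, had no value in Tcon. In Tcon the gene of the family that passed was Gbp11 on chromosome 5 (105323026 to 105346476), annotated as a transcribed pseudogene, with 469.8, 526, 486 and 336 in venetoclax Tcon, against 178, 214, 136 and 221 in vehicle Tcon. Its groups were apart, at a log2 change of 1.28 ± 0.18 (SE, adjusted p = 0.00263), and the adjusted p was 0.0687 without venetoclax libraries 1 and 3. In Treg it had 76.2 ± 9.58 in venetoclax Treg and 76.4 ± 3.95 in vehicle Treg (SD, n = 4 each).

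Whether the venetoclax effect itself differed between Treg and Tcon was tested as an interaction over all 16 libraries. By limma 0 of the 34 genes passed, beside 1.3% of the 10774 genes in both tables, and 5 of the 34 had an unadjusted p under 0.05. On recovered reads edgeR called 0 (1.31% of all genes) and DESeq2 called 1, Ifi208 (2.74% of all genes). The 5 were Ifi208, with a difference of Treg minus Tcon of -0.33 ± 0.087 (SE, adjusted p = 0.0753), Gbp7 with 0.25 ± 0.092 (SE, adjusted p = 0.294), Oas2 with -0.72 ± 0.29 (SE, adjusted p = 0.355), Xaf1 with -0.23 ± 0.10 (SE, adjusted p = 0.452) and Usp18 with -0.34 ± 0.15 (SE, adjusted p = 0.468). Treg and Tcon libraries of the same code paired, and with the code as a block Ifi208 (adjusted p = 0.0155) and Oas2 (0.0236) passed, beside 3.61% of all genes. Both fell in Treg and did not pass in Tcon. For the other 32 genes a difference between the subsets was not shown. That includes Gbp3, which passed in Treg and not in Tcon (difference 0.22 ± 0.11 SE, adjusted p = 0.533). Gbp11 passed the test of the difference, at -1.29 ± 0.22 (SE, adjusted p = 0.00839).

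Levels of Treg and Tcon were set side by side as CPM, with no test because the tables were normalized separately. In vehicle mice 12 of the 34 genes were higher and 5 lower in all 4 Treg than in all 4 Tcon libraries, a separation that 24.5% and 12% of all genes show. In venetoclax mice 11 were higher and 7 lower, beside 30.2% and 18.3%. Gbp3 differed most, at 146 ± 12.2 CPM in vehicle Treg and 14.5 ± 0.703 CPM in vehicle Tcon (SD, n = 4 each), 10.1-fold higher in Treg. After venetoclax it was at 203 ± 12.8 CPM in venetoclax Treg and 17.3 ± 2.08 CPM in venetoclax Tcon, 11.7-fold higher. Gbp2, Gbp6 and Gbp7 were 2.00-, 2.07- and 2.04-fold higher in vehicle Treg than in vehicle Tcon, and Gbp4 overlapped (1.11-fold). The antiviral class was split. Isg20, Oas1a and Usp18 were 2.04-, 1.93- and 1.71-fold higher in vehicle Treg, and Stat2, Parp14, Irf9 and Xaf1 were between 1.25- and 1.44-fold higher. Ifi203 was 1.17-fold higher.

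Oas2 was the gene with the largest ratio in favour of Tcon, at 8.38 ± 1.63 CPM in vehicle Treg and 34.8 ± 12.9 CPM in vehicle Tcon, 4.16-fold higher in Tcon. After venetoclax it was at 4.71 ± 0.740 CPM in venetoclax Treg and 31.4 ± 6.34 CPM in venetoclax Tcon, 6.67-fold higher in Tcon. Ifi213, Ifi208, Ddx58 and Ifit2 were 1.78-, 1.77-, 1.46- and 1.31-fold higher in vehicle Tcon, also without overlap. Irf7 and Oasl1 joined them in venetoclax mice, at 1.51- and 1.68-fold. The median log2 ratio of Treg over Tcon in vehicle mice was 0.12 for the antiviral genes, 0.049 for the PYHIN and Schlafen genes and 1.03 for the GBPs, beside 0.041 for all genes.

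Per kilobase of GENCODE exon length (RPKM), Ifi209 was the highest of the 34 genes, at 117 ± 4.0 in vehicle Treg and 107 ± 11 in vehicle Tcon (SD, n = 4 each). Ifi203 came next (70.9 ± 3.3 and 60.4 ± 2.5), and in Treg Gbp2 (68.0 ± 4.8), Gbp7 (61.8 ± 3.2) and Gbp6 (57.7 ± 4.4) followed, where each differed from the next by less than the SDs of both added together. In vehicle Tcon the next were Slfn8 (52.4 ± 5.3) and Ifi208 (51.4 ± 3.4), and Gbp3 was at 4.44 ± 0.22. Ifi44, an antiviral gene, was the lowest in both, at 0.473 ± 0.22 in vehicle Treg and 0.575 ± 0.21 in vehicle Tcon. Oas2 and Rsad2, which did not differ beyond their SD, were next lowest in Treg (1.88 ± 0.37 and 1.98 ± 0.54). The exon lengths are not necessarily those the authors counted over.

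**Figure D5:**
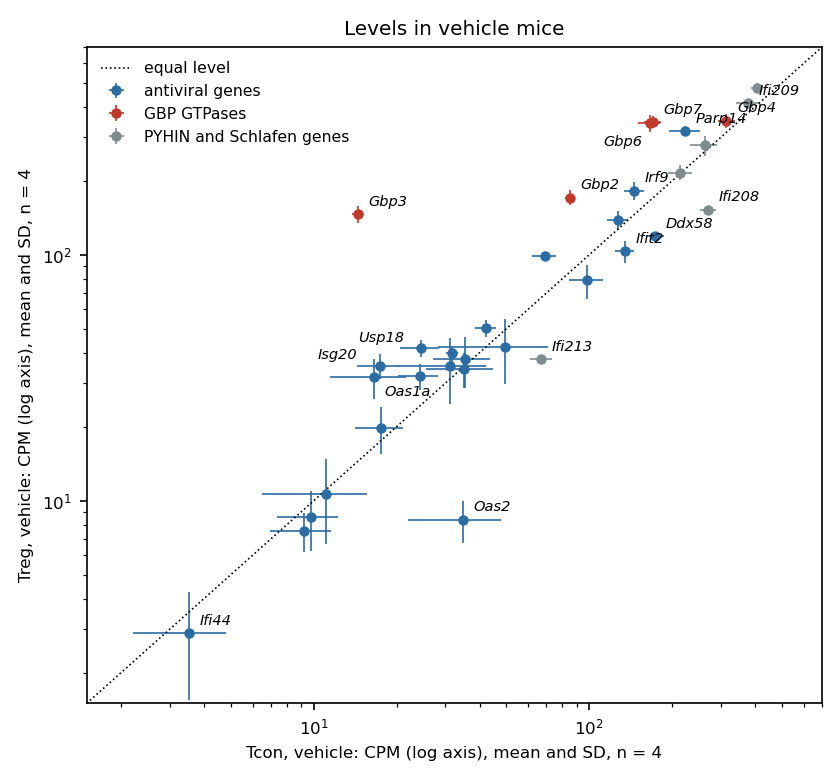
Mean CPM with SD (n = 4) of the 34 genes in vehicle Treg (vertical, log axis) and vehicle Tcon (horizontal, log axis). Gbp3 lies farthest above the line of equal level at 146 CPM in Treg against 14.5 CPM in Tcon, and Oas2 farthest below it at 8.38 CPM in Treg against 34.8 CPM in Tcon.

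The genes that carry or limit interferon signals were taken from lists made for these results. The counts of these lists stand beside 8.81% of all genes lower and 10.7% higher in Treg, and 2.99% and 3.92% in Tcon. Ifngr1, the ligand-binding chain of the interferon gamma receptor, rose in both subsets. It had 11613, 11036, 11527 and 9454 in venetoclax Treg, against 6627, 7461, 5736 and 6065 in vehicle Treg, and 4829, 3987, 5913 and 4675 in venetoclax Tcon, against 3034, 3104, 2683 and 2707 in vehicle Tcon. Neither subset's groups overlapped, at log2 changes of 0.76 ± 0.082 (SE, adjusted p = 0.000124) and 0.74 ± 0.11 (SE, adjusted p = 0.00366). The signalling chain Ifngr2 fell in Treg (1143 ± 96.6 in venetoclax Treg and 1369 ± 57 in vehicle Treg, -0.26 ± 0.064 SE, adjusted p = 0.0127), as did Ifnar1 of the type I receptor (6319 ± 154 in venetoclax Treg and 7603 ± 529 in vehicle Treg, -0.26 ± 0.054 SE, adjusted p = 0.00474). Neither passed in Tcon (-0.22 and -0.16), and with the block Ifngr2 did (adjusted p = 0.0236). Ifnar2 passed in neither, at 0.06 in Treg and 0.081 in Tcon. In all, 1 of 8 measured receptor and kinase genes rose and 2 fell in Treg, and 1 rose in Tcon. Ifng, the only interferon gene of 9 listed that was measured, had 120.4 ± 27 in venetoclax Treg and 179 ± 57.6 in vehicle Treg (SD, n = 4 each, -0.54 ± 0.21 SE, adjusted p = 0.0918). In the other subset it had 137 ± 33.7 in venetoclax Tcon and 237 ± 103 in vehicle Tcon (log2 change -0.69 ± 0.34 SE, adjusted p = 0.254). In Tcon it passed with the block (adjusted p = 0.00821). In Tcon it did not pass with Ddx3y as a covariate (adjusted p = 0.380), DESeq2 (0.0781) or edgeR (0.165). In Treg it passed with Ddx3y as a covariate, at a log2 change of -0.79 (adjusted p = 0.0252), and with DESeq2 (0.0377). With edgeR it did not pass in Treg (adjusted p = 0.0788).

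Of 8 measured signal transcription factors 4 rose and 0 fell in Treg: Irf2 (log2 change 0.26 ± 0.049 SE, adjusted p = 0.00320), Irf5 (log2 change 0.43 ± 0.086 SE, adjusted p = 0.00464), Stat3 (log2 change 0.25 ± 0.051 SE, adjusted p = 0.00438) and Nlrc5, the activator of MHC class I genes (log2 change 0.23 ± 0.057 SE, adjusted p = 0.0138). In Tcon 0 of the 8 passed without the block, and Stat3 (0.33, adjusted p = 0.00151) and Nlrc5 (0.26, 0.0167) did with it. Irf1, a main factor of the interferon gamma response, was not past the threshold (log2 change -0.062 ± 0.052 SE, adjusted p = 0.435 in Treg and -0.026 ± 0.086 SE, adjusted p = 0.903 in Tcon). Of 10 signal inhibitors, the phosphatase gene Ptpn1 rose in Treg (log2 change 0.16 ± 0.050 SE, adjusted p = 0.0343). In Tcon the phosphatase gene Ptpn6 rose (log2 change 0.36 ± 0.081 SE, adjusted p = 0.0258) and Trim24 fell (log2 change -0.24 ± 0.062 SE, adjusted p = 0.0479).

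Further antiviral interferon-stimulated genes showed falls and rises: 7 of 34 measured fell and 2 rose in Treg, with a median log2 change of -0.043. Over all Treg genes 8.81% passed as lower and 10.7% as higher. The 7 were Ifit1bl1, an IFIT-like gene of the same chromosome 19 cluster (log2 change -0.66 ± 0.099 SE, adjusted p = 0.000822), Cmpk2, the neighbour of Rsad2 (log2 change -0.57 ± 0.12 SE, adjusted p = 0.00663), the PYHIN gene Ifi214 (log2 change -0.50 ± 0.091 SE, adjusted p = 0.00271), Lgals3bp (log2 change -0.38 ± 0.12 SE, adjusted p = 0.0350), Daxx (log2 change -0.31 ± 0.065 SE, adjusted p = 0.00532), Lgals9 (log2 change -0.22 ± 0.054 SE, adjusted p = 0.0136) and Epsti1 (log2 change -0.15 ± 0.045 SE, adjusted p = 0.0308). The 2 were Ifitm2, which hinders virus entry (log2 change 0.45 ± 0.13 SE, adjusted p = 0.0292), and Dtx3l, the partner of an ADP-ribosyltransferase (log2 change 0.20 ± 0.064 SE, adjusted p = 0.0417). In Tcon 0 of 34 passed without the block, while Cmpk2 (0.0235), Daxx (0.0301), Ifi214 (0.00587) and Dtx3l (0.0408) had an adjusted p under the threshold with it. In the test of the difference between subsets, Lgals9 (adjusted p = 0.00792) and Lgals3bp (0.0202) passed with the code as a block, and Lgals9 also with DESeq2 (0.0216). Of 15 nucleic acid sensing genes measured in Treg, Tlr7, a receptor of single-stranded RNA, fell (log2 change -0.34 ± 0.082 SE, adjusted p = 0.0119). Of the 14 measured in Tcon, Tmem173, which encodes STING, rose (log2 change 0.25 ± 0.062 SE, adjusted p = 0.0409). The difference of Tmem173 between subsets, at -0.23 ± 0.071 (SE, adjusted p = 0.155), passed with the code as a block (adjusted p = 0.0482) and with DESeq2 (0.0480).

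Several calls of genes outside the list did not hold without certain single libraries. Leaving out 1 library gave an adjusted p above 0.05 for Dtx3l (up to 0.117, without venetoclax library 1), Epsti1 (up to 0.0946, without vehicle library 1), Ifitm2 (up to 0.0881, without venetoclax library 4), Lgals3bp (up to 0.101, without vehicle library 3) and Ptpn1 (up to 0.102, without venetoclax library 1) in Treg. In Tcon it did so for Ptpn6 (up to 0.105) and Tmem173 (up to 0.151), both without venetoclax library 1, and Trim24 (up to 0.133, without venetoclax library 2). Each of these 8 genes lost its call without at least 4 of the libraries taken singly. With Ddx3y as a covariate the adjusted p was above 0.05 for Dtx3l, Epsti1, Lgals3bp, Lgals9, Nlrc5, Ptpn1 and Tlr7 in Treg, from 0.0613 in Tlr7 to 0.172 in Lgals3bp, and for Ptpn6 (0.123), Tmem173 (0.156) and Trim24 (0.208) in Tcon.

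Of 6 measured GTPases beyond the list, 3 rose in Treg (Gbp2b, Gbp5 and Irgm2), beside 10.7% of all genes. Irgm2, the one IRG GTPase with a value in this text, had 6182, 4640.1, 6196 and 5271 in venetoclax Treg, against 4575, 4131, 3546 and 3456 in vehicle Treg. All venetoclax libraries were above all vehicle libraries (log2 change 0.50 ± 0.10 SE, adjusted p = 0.00433). In Tcon Irgm2 had 2594 ± 295 in venetoclax Tcon and 2264 ± 287 in vehicle Tcon (SD, n = 4 each) and did not pass (log2 change 0.20 ± 0.11 SE, adjusted p = 0.310). The difference between subsets was 0.31 ± 0.16 (SE, adjusted p = 0.578), with an adjusted p of 0.0361 with the code as a block.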

How the data were processed

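Total RNA of sorted cells was sequenced in 16 libraries. The submitters' processing notes name HISAT2, SAMtools and mm10. No source used here gives the counter, annotation or strand setting. Per the file headers and values, the library columns hold the authors' normalized signal, a normalized count made by dividing each gene's reads by the library's size factor, in a separate table for each subset. All values were whole multiples of 1 step per library (tolerance 0.01), so reads were recovered. In 3 Tcon columns (vehicle 2 and 4, venetoclax 3) the factor is within 0.01 of 1. Deposited columns also hold the authors' log2 fold change and the authors' p-value for each gene. There were 11211 lines with 40 repeats for Tcon and 11110 lines with 43 repeats for Treg, and 18 symbols turned into dates were restored by Entrez identifier.

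On log2(normalized count + 1), limma 3.58.1 (R 4.3.3) compared 4 with 4 libraries over each whole table, using eBayes with a trend, two-sided, with Benjamini-Hochberg adjustment and a threshold of 0.05. Fold changes on this scale understate those of low genes. The difference between subsets was the interaction over 16 libraries. CPM and RPKM were computed from recovered reads. edgeR 4.0.16 and DESeq2 1.42.0 on recovered reads, other pseudocounts (0.5 and 5), a minimum mean of 50, upper quartile scaling, a replicate block, Ddx3y as a covariate and leaving out libraries were alternatives. Scripts were tested on simulated counts. P-values measure the spread between these libraries. Genes, lists and tests were chosen with earlier results of these data known. Per-library values are given for each listed gene past the threshold in a table, filled up to 8 genes per table by smallest p, and for Stat2, Irf9, Irf7, Isg15 and Gbp2. Genes of other lists are named where they passed, and Irf1, Ifng and the receptor genes in any case; 1 further gene of that rule is not reported here.

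Whether numbers pair libraries was read from correlations of deviations from the group mean over genes with a mean of at least 50. Tcon libraries with the same number gave r = 0.119, 0.555, 0.614 and 0.272, and Treg and Tcon libraries with the same code gave r above 0.1 in all 8 pairs. Both were treated as paired by a minimum r of 0.1. For the numbers in Tcon this pairing is assumed, since vehicle and venetoclax libraries come from different mice. In Treg the same numbers gave r from -0.0395 to 0.414. Tcon libraries of unlike numbers gave r from -0.472 to 0.292, so the values of numbers 1 and 4 do not stand apart from these.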

Additional observations from a re-analysis of the deposited data

Results flagged for a closer look

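In 10 of 250 gene and group combinations 1 library stood apart from the other 3 by Dixon's 95% criterion, a rule that chance meets about 1 time in 20. Vehicle library 2 of Treg was the low one for Usp18 (867.6 normalized counts, the next being 1020.0), Oasl1 (129, next 193.8) and Lgals3bp (748, next 1071). Venetoclax library 1 of Treg was the high one for Gbp3 (5265, next 4639) and Ifit1bl1 (2469, next 1985). In venetoclax Tcon, library 2 was low for Epsti1 (2754, next 2997), library 3 was low for Ifng (86.7, next 150.9) and Nlrc5 (9663, next 11705), and library 4 was high for Ifitm2 (13.8, next 8.17). Vehicle library 3 of Tcon was low for Irf5 (34.8, next 52.6).

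The venetoclax effect on Gbp11 differed between the subsets by -1.29 on the log2 scale, Treg minus Tcon (limma interaction, adjusted p = 0.00839).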

How the results depend on the processing

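The count of called genes in Tcon, 2 of 34, was 7 with DESeq2 (12.2% of all genes), 12 with the replicate block (16.8%), 1 with Ddx3y as a covariate (2.92%), and between 1 and 3 when single libraries were left out (2.74% to 11.1%). Chosen after seeing the data, leaving out both libraries numbered 2 gave 1 (1.77%), and leaving out venetoclax libraries 1 and 3 gave 0 (1.04%). In Treg the count of 18 was 11 with the covariate (13.8% of all genes), 11 without both libraries numbered 3 (9.29%) and 12 to 23 without single libraries (12% to 19.9%), so the share of all genes called moved as well, from 19.6%. It was 24 with the replicate block (22.3% of all genes), but Treg libraries of the same number did not all correlate (r = -0.0395, 0.414, 0.256 and 0.385), so the block only shares a number there. For the difference between subsets the count of 0 was 1 with DESeq2, 2 with the replicate block and 0 to 1 without single libraries. The causes of these shifts were not tested. The settings that leave libraries out also have fewer samples. Upper quartile scaling gave 19 calls among the 34 genes in Treg. The medians of the antiviral genes and the GBPs in both subsets kept their sign in every alternative except the antiviral median of Tcon, which was 0.0049 with the covariate. The counts of genes separated between Treg and Tcon, 17 in vehicle and 18 in venetoclax mice, stayed between 16 and 22. Over all genes 24.5% were separated as higher and 12% as lower in vehicle Treg. In venetoclax Treg these shares were 30.2% and 18.3%, and shares under the alternatives are not given here. Among single genes 3584 of 3799 values stayed on their side of the threshold, 76 passed it and 139 lost it. The sign changed in 146 of the 3799, none of them of a gene past the threshold in the reported fit. Low counts, as for Ifi44, limit what can be seen.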
